A study of Drosophila melanogaster with 5 samples.

Results

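Bantam and miR-8, a pair of microRNAs known for their effects on tissue growth in the fruit fly, were followed through small RNA libraries of the adult male intestine and of the carcass that remained after its dissection. The rows named ban (bantam) and mir-8 were taken from the table of read counts and account for 4 of its 479 mature microRNA arms, or 2 of its 259 hairpins, with a 5p and a 3p arm for each. The flies were Drosophila melanogaster males of the white-eyed w1118 strain, adults of 2 to 3 days on standard food, and gave 3 libraries of dissected intestine and 2 of carcass. Both tissues came from that strain alone, and the labels name no treatment. The carcass, as what is left of the body, is a mixture that would include muscle, fat body, nervous system, epidermis and gonad, so a level in it is an average over all of them. In such bulk tissue, fewer cells of a type and less RNA per cell cannot be told apart.

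A microRNA is cut from a hairpin as a duplex, and usually one arm is loaded into an Argonaute protein while the other is discarded. Bantam promotes cell proliferation and prevents cell death, in part by repressing the pro-apoptotic gene hid, and it is switched on by Yorkie, the transcription factor that the Hippo pathway restrains. In the intestine, bantam has been linked to the division of stem cells. miR-8 is the fly member of the miR-200 family. It acts in the fat body on body size through u-shaped and insulin signalling, and in the intestine it promotes the differentiation of progenitors by repressing escargot.

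In the BDGP6.54 annotation the bantam hairpin (mir-ban, FBgn0262451) lies on the plus strand of chromosome 3L at 642208 to 642288. It falls within an exon of the non-coding transcript lncRNA:CR43334, and bantam-5p occupies 642222 to 642244 and bantam-3p 642259 to 642281. The nearest other microRNA gene on the chromosome arm is 2608733 bases away. The mir-8 hairpin (FBgn0262432) lies on the plus strand of chromosome 2R at 16831432 to 16831518, likewise within an exon of a non-coding transcript, lncRNA:CR43650. Both hairpins therefore stand alone and not in a genomic cluster of microRNAs. The mature arms are 23, 23 and 23 nt long for bantam-3p, bantam-5p and miR-8-3p, and 22 nt for miR-8-5p, so that read counts of the arms need no correction for length. They still carry the unequal ligation and amplification of each sequence.

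The intestine libraries held 329424 to 547937 microRNA reads and the carcass libraries 1654625 and 3038873. Of the 222 arms that passed the filter on low counts, 34.7% were higher and 48.2% lower in the intestine (edgeR quasi-likelihood test, Benjamini-Hochberg adjusted p under 0.05). All 4 bantam and miR-8 arms passed the filter, and the lowest count of any of them in any library was 461 reads. The labels do not tie the libraries of one tissue to separate animals, and p-values therefore reflect the spread between libraries, which may be technical. PCR reads without molecular identifiers are not independent molecules, so the intervals on shares cover counting error alone.

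Bantam was carried almost entirely by its 3p arm, the guide strand, which ranked between 8th and 11th in every library. bantam-3p made up 2.36% of the microRNA reads in intestine replicate 1 (95% Wilson interval 2.32 to 2.40), 2.88% in replicate 2 (2.83 to 2.93) and 2.65% in replicate 3 (2.60 to 2.71). It made up 1.91% (1.89 to 1.93) and 2.83% (2.81 to 2.84) in carcass replicates 1 and 2. As a share of all microRNA reads the tissues thus overlapped, with carcass replicate 2 inside the range of the intestine and carcass replicate 1 below it. In the carcass it ranked 10th in replicate 1 and 8th in replicate 2. After trimmed mean of M-values (TMM) scaling, which allows for a few very abundant arms taking up reads, bantam-3p measured 27167, 32603 and 31565 CPM (reads per 1000000 microRNA reads, here after scaling) in the intestine. In the carcass it measured 14949 and 23324 CPM, so that on this scale both carcass libraries lay below all 3 intestine libraries. Among all arms tested, 87.8% showed tissues that did not overlap on this scale.

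The discarded strand, bantam-5p, was higher in the intestine on either scale. It had 1085, 958 and 715 reads in the intestine libraries, or 1980, 2601 and 2170 CPM on library totals, against 1820 and 5197 reads, or 1100 and 1710 CPM, in the carcass. Every intestine library lay above both carcass libraries. A separation of the tissues, in either direction, was seen for 87.8% of the arms tested on the TMM scale and was not counted on library totals. The arm ranked 42nd to 45th in the intestine libraries and 58th to 64th in the carcass libraries.

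miR-8 was the most abundant microRNA of the carcass and a steady but smaller part of the intestine. miR-8-3p made up 4.93% (4.87 to 4.99), 4.88% (4.81 to 4.95) and 4.91% (4.84 to 4.98) of the microRNA reads in intestine replicates 1 to 3. It made up 16.5% (16.5 to 16.6) and 14.1% (14.1 to 14.2) in carcass replicates 1 and 2. The intestine intervals overlapped one another and lay far below both carcass libraries, where separate tissues were the rule (87.8% of the arms tested on the TMM scale). The arm ranked 5th in all 3 intestine libraries and 1st in both carcass libraries. miR-8-5p, the minor strand, had 860, 526 and 461 reads in the intestine libraries against 9946 and 13460 in those of the carcass, or 1570, 1428 and 1399 against 6011 and 4429 CPM on library totals. It ranked 54th to 56th in the intestine and 22nd and 36th in the carcass.

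**Figure D1:**
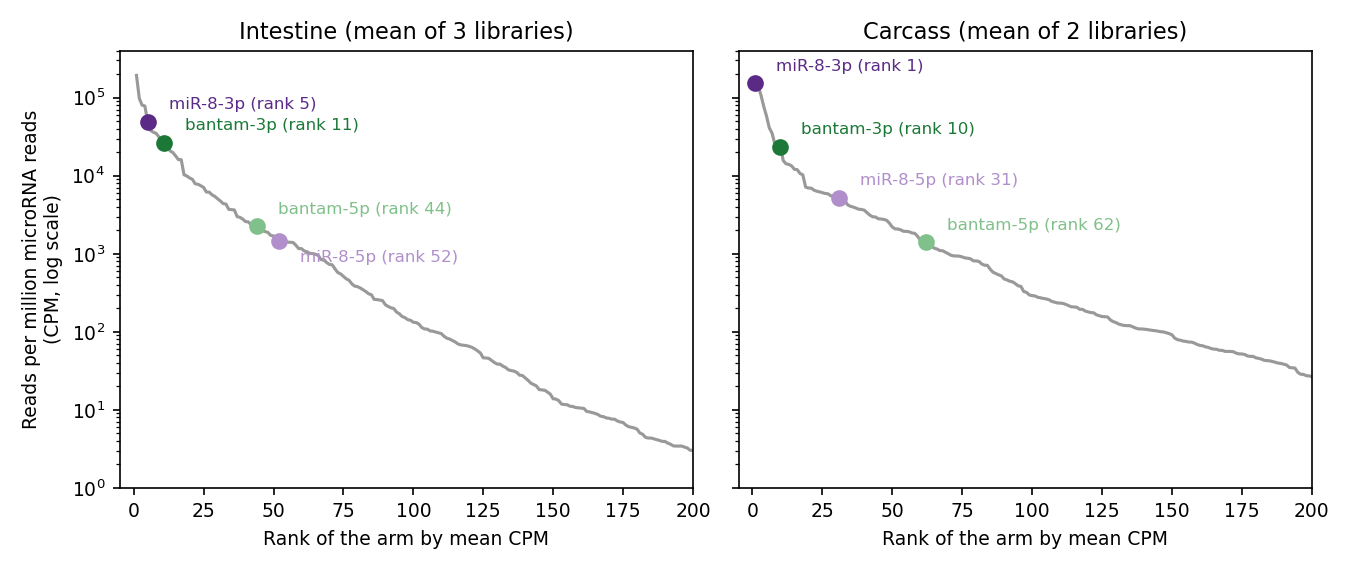
Mean level of each arm in CPM on library totals (log axis) against its rank, for the 3 intestine and 2 carcass libraries, with the first 200 ranks shown. miR-8-3p stood at rank 5 in the intestine and 1 in the carcass, bantam-3p at 11 and 10, and the 5p arms changed places, with bantam-5p at 44 and 62 and miR-8-5p at 52 and 31.

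The tissues were compared to see how the output of each growth microRNA in the gut relates to that of the rest of the body. bantam-3p was higher in the intestine by 0.67 on the log2 scale (SE 0.21, edgeR adjusted p = 0.00411), which is 1.59-fold. Its TMM-scaled mean was 30445 ± 2886 CPM (SD, n = 3), against 19137 ± 5922 CPM for the carcass (SD, n = 2). The call depended on the scaling. With library totals the log2 difference was 0.15 (edgeR adjusted p = 0.479), and it was lost in 9 of 15 alternatives, including leaving out intestine replicate 2, intestine replicate 3 or carcass replicate 1, with log2 differences of 0.15 to 1.01 over all 15. bantam-5p was higher by 1.19 (SE 0.26, edgeR adjusted p = 8.12e-05), or 2.29-fold, and passed in all 15 alternatives, with 0.68 to 1.58.

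Both arms of miR-8 were lower in the intestine, whichever setting was used. miR-8-3p had a log2 fold change of -1.12 (SE 0.17, edgeR adjusted p = 4.15e-07), so that the carcass held 2.17-fold more, and the TMM-scaled levels of the 3 intestine libraries, 56652, 55254 and 58424 CPM, lay below 129566 and 116763 CPM. With library totals the log2 fold change was -1.64, and over the 15 alternatives it ran from -1.64 to -1.03 and always passed. miR-8-5p had -1.30 (SE 0.23, edgeR adjusted p = 4.61e-06), or 2.47-fold more in the carcass, and -1.83 to -1.10 over the alternatives. A call in one direction or the other was common, as 82.9% of the tested arms had one.

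**Figure D2:**
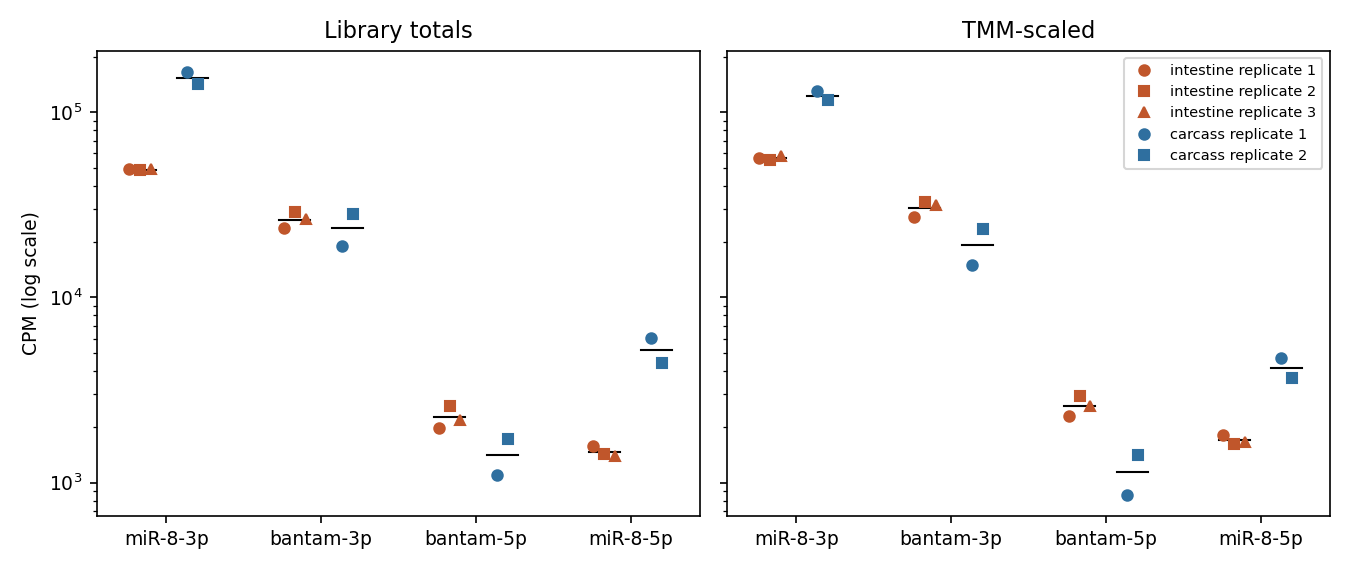
Level of each arm in each library, as CPM on library totals (left) and as TMM-scaled CPM (right), on log axes, with a bar at the mean of each tissue. The tissues are apart on both scales for both miR-8 arms and for bantam-5p, whereas for bantam-3p carcass replicate 2 lies within the intestine range on library totals and below it after TMM.

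The choice of scaling shifted all arms by nearly the same amount, which by construction leaves the distance of bantam and miR-8 from the median arm almost as it was. Over all 222 arms the median log2 fold change was -0.50 with TMM and -1.03 with library totals. Relative to that median, bantam-3p stood at 1.17 with TMM and 1.18 with library totals, bantam-5p at 1.69 and 1.70, miR-8-3p at -0.62 and -0.62, and miR-8-5p at -0.80 and -0.81. With TMM 73 of 222 arms had a higher log2 fold change than bantam-3p, and 122 had a higher one than miR-8-3p. Other filters, tools and left-out libraries moved the distance more, from 1.04 to 1.60 for bantam-3p and from -0.78 to -0.17 for miR-8-3p over all 16 settings. With library totals 22.5% of the arms were called higher and 56.8% lower. This median depends on which arms are tested and does not mark the level of no change.

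**Figure D3:**
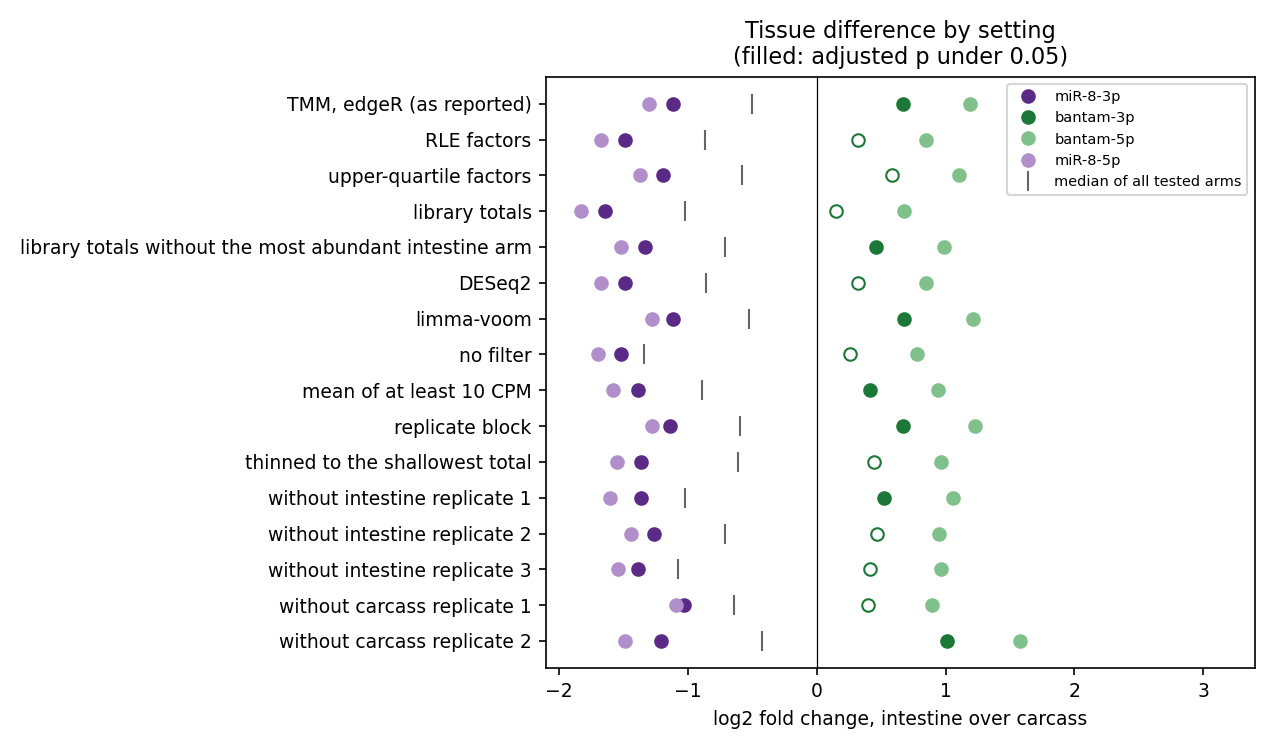
Log2 fold change, intestine over carcass, of the 4 arms under TMM scaling with edgeR and under 15 other settings, with the median of all tested arms as a tick. The miR-8 arms stay filled and below 0 throughout and bantam-5p stays filled and above 0, while bantam-3p is open (adjusted p of 0.05 or more) in 9 of the 15.

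Adding the arms of each hairpin gave the same directions for the total output. TMM factors were computed anew on the sums, so the sizes are not on the scale of the arm values above. On this scale the mir-8 sum lay nearer to no change than either of its arms. The bantam hairpin was higher in the intestine by 0.91 (SE 0.22, edgeR adjusted p = 0.00231) and the mir-8 hairpin lower, with a log2 fold change of -0.93 (SE 0.20, edgeR adjusted p = 0.00112), among 139 hairpins of which 33.8% were called higher and 51.1% lower. With library totals, which arms and sums share, the bantam sum had 0.19 (edgeR adjusted p = 0.368) and the mir-8 sum -1.65. Each then lay between the values of its arms. Without carcass replicate 1 the bantam sum had 0.52 (edgeR adjusted p = 0.0199).

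A ratio of both microRNAs within a library needs no scaling between libraries. For each read of bantam-3p, the intestine libraries held 2.09, 1.69 and 1.85 reads of miR-8-3p, and the carcass libraries held 8.67 and 5.01. miR-8-3p thus exceeded bantam-3p in all 5 libraries, and by more in both carcass libraries than in any intestine library. The mean log2 ratio of bantam-3p to miR-8-3p was -0.90 ± 0.15 (SD, n = 3) for the intestine and -2.72 ± 0.56 (SD, n = 2) for the carcass, a difference of 1.82, or 3.52-fold. With the reads of both arms added, the difference was 1.86. An exact two-sided permutation test gave p = 0.2 for the 3p arms, the sums and the 5p arms alike, which is the smallest value that 10 arrangements of 3 and 2 libraries allow, and adjusting over these 3 comparisons leaves it unchanged.

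The minor strands changed places between the tissues. There were 1.26, 1.82 and 1.55 reads of bantam-5p for each read of miR-8-5p in the intestine libraries, and 0.183 and 0.386 in the carcass libraries. bantam-5p was the more abundant of them in 3 of 3 intestine libraries, and miR-8-5p in both carcass libraries. The mean log2 ratio differed by 2.52, or 5.75-fold.

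The share of the minor strand of bantam was larger in the intestine in every library, but the difference missed the threshold. bantam-5p held 7.73% (95% Wilson interval 7.30 to 8.19), 8.28% (7.79 to 8.80) and 7.56% (7.05 to 8.11) of the reads of its hairpin in intestine replicates 1 to 3. It held 5.45% (5.22 to 5.70) and 5.71% (5.56 to 5.86) in carcass replicates 1 and 2. The tissues did not overlap, as was the case for 46.4% of the 69 hairpins with both arms read in every library. The log2 ratio of 5p over 3p reads was higher in the intestine by 0.53 (SE 0.15, 95% interval 0.14 to 0.92, limma adjusted p = 0.0674), a ratio 1.44-fold as high. Of the 129 hairpins tested 22.5% passed, but 6 of those had no read in any intestine library, so that the 0.5 reads added to each arm set their intestine ratio. Over the 69 hairpins alone 27.5% passed, and bantam had an adjusted p of 0.157 by limma. The unequal log2 fold changes of bantam-5p and bantam-3p given above are this same quantity, so a difference between the arms was not established by this test. Its size ran from 0.49 to 0.56 over 9 alternatives, with adjusted p from 0.0543 to 0.217.

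The arms of miR-8 kept closer proportions. miR-8-5p held 3.09% (2.89 to 3.30), 2.84% (2.61 to 3.09) and 2.77% (2.53 to 3.03) of the reads of its hairpin in the intestine libraries, and 3.51% (3.44 to 3.58) and 3.04% (2.99 to 3.09) in the carcass libraries. Carcass replicate 2 lay within the intestine range and carcass replicate 1 above it. The log2 ratio of 5p over 3p changed by -0.18 (SE 0.17, 95% interval -0.62 to 0.27, limma adjusted p = 0.480), which allows changes in either direction. Over the 69 hairpins with both arms read in every library the median size of the difference was 0.50, and 31 hairpins had a larger one than bantam and 55 a larger one than miR-8.

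**Figure D4:**
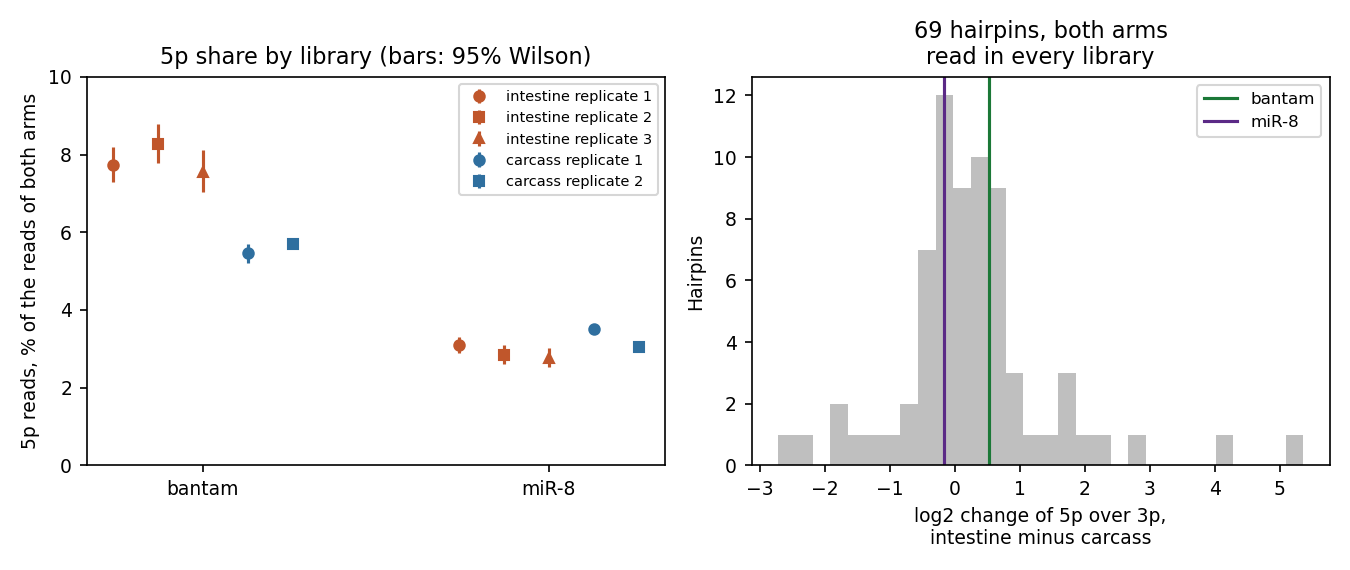
Left, share of 5p reads among the reads of both arms for bantam and miR-8 in each library, with 95% Wilson intervals. Right, histogram of the log2 change of 5p over 3p (intestine minus carcass) over the 69 hairpins with both arms read in every library, with bantam at 0.53 and miR-8 at -0.18, both near its centre.

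The libraries of one tissue differed unequally for the 2 microRNAs. Between the carcass libraries, TMM-scaled bantam-3p differed 1.56-fold and bantam-5p 1.64-fold, both lower in carcass replicate 1, whereas miR-8-3p differed 1.11-fold. Among 148 arms with a mean of at least 100 CPM in either tissue the median was 1.23-fold, and 15 differed more than bantam-3p, 9 more than bantam-5p and 111 more than miR-8-3p. Between the intestine libraries, the highest value of miR-8-3p was 1.06-fold the lowest, against a median of 1.31-fold, and 132 of 135 arms read in all 3 libraries varied more. bantam-3p varied 1.20-fold there. This order depended on the scale. With TMM factors computed anew on hairpin sums, mir-8 had 73695, 56242 and 56589 CPM in intestine replicates 1 to 3, and bantam 37119, 35154 and 32158. As a share of microRNA reads the mir-8 sum was steady, at 5.08, 5.02 and 5.05%. Without carcass replicate 2 the tissue difference of bantam-3p was 1.01 on the log2 scale, against 0.40 without carcass replicate 1.

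In the order of levels, miR-8-3p stood clear of its neighbours in the intestine and bantam-3p did not. By mean TMM-scaled CPM in the intestine, miR-956-3p (90726 ± 9126, SD, n = 3) lay above miR-8-3p and miR-184-3p (44204 ± 3447) below it, and neither overlapped with it. In the carcass miR-8-3p lay above miR-1-3p (113769 ± 3071, SD, n = 2), the muscle microRNA, without overlap on this scale (116763 against 115941 CPM for the nearest libraries). On library totals they overlapped, at 141480 and 165253 CPM for miR-8-3p and 135222 and 147875 CPM for miR-1-3p, with miR-8-3p the higher within each library. bantam-3p lay between miR-314-3p (31189 ± 5932) and miR-317-3p (29676 ± 3125) in the intestine, and its range overlapped with both. In the carcass it overlapped with miR-317-3p above it (20179 ± 706) but not with miR-263a-5p below it (12601 ± 2197). bantam-5p stood between miR-958-5p and miR-190-5p in the intestine and between miR-9b-5p and miR-14-5p in the carcass. miR-8-5p stood between miR-281-2-5p and miR-988-3p in the intestine and between miR-996-3p and miR-281-2-5p in the carcass, and the 5p arms overlapped with each of these neighbours. The most abundant arm of the intestine, miR-958-3p, took 18.9 to 19.8% of its microRNA reads, and without those reads the shares in the intestine would be 3.26 ± 0.33% for bantam-3p and 6.08 ± 0.04% for miR-8-3p (SD, n = 3).

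The arms whose pattern over the 5 libraries lay closest to each guide strand were found by the distance between centred log2 TMM-scaled CPM, among 123 other arms with a mean of at least 100 CPM. Nearest to bantam-3p were miR-184-3p (distance 0.35 log2 units), miR-100-5p (0.42) and miR-998-5p (0.42), with log2 fold changes of 0.41, 0.41 and 0.33, none of which passed the test. Nearest to miR-8-3p was its own minor strand miR-8-5p (0.27), followed by miR-276a-3p (0.30) and miR-87-3p (0.48), with log2 fold changes of -1.30, -0.96 and -1.37, all called lower. With 5 libraries from 2 tissues, these distances mostly reflect the size of the tissue difference.

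The microRNAs linked to growth went in both directions. The growth list held bantam and miR-8 with miR-278, miR-305, miR-7 and let-7. Of its 12 arms, 11 were tested, and 5 of these were called higher in the intestine and 4 lower, beside 34.7% and 48.2% of all arms. Apart from bantam and miR-8 it was 3 higher and 2 lower of 7. The 11 arms had a median log2 fold change of 0.03, beside -0.50 over all tested arms. The higher arms other than bantam were let-7-3p (1.35), the minor strand of a microRNA that times development, and both arms of miR-305, which acts on insulin and Notch signalling in intestinal stem cells. miR-305-3p had 1.17 and miR-305-5p 0.95, and the latter averaged 20779 ± 1542 CPM over the intestine libraries (SD, n = 3) and 10730 ± 1048 CPM over those of the carcass (SD, n = 2). The lower arms other than miR-8 were miR-7-5p (-2.31), known from the photoreceptor and the germline stem cell, and miR-278-3p (-0.63), whose overexpression causes overgrowth of the eye. The guide strand of let-7, let-7-5p, had 0.03 and did not pass (edgeR adjusted p = 0.895). With library totals 4 arms of this list were higher and 6 lower, and let-7-5p was then called lower at -0.50. Summed, the list held 109786 to 117860 CPM on library totals in the intestine. Its sums of 237885 and 224008 CPM in carcass replicates 1 and 2 were mostly miR-8-3p, at 165253 and 141480.

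The microRNAs known for limiting cell death, the other side of bantam's activity through hid, included more arms higher in the intestine than lower. Of 34 arms in the list, 25 were tested, 17 were higher, 4 lower and 4 not called, with a median log2 fold change of 0.93, beside 34.7% higher, 48.2% lower and a median of -0.50 over all arms. With library totals 9 were higher and 7 lower, beside 22.5% and 56.8% of all arms. No test compared the list with other arms. The largest positive values were 2.68 for miR-6-1-3p, 2.40 for miR-263a-3p, 1.97 for miR-2a-1-5p and 1.84 for miR-2b-2-5p and for miR-13b-2-5p. miR-6-1-3p had few reads, 23 from the intestine and 19 from the carcass. The 3p arms of the numbered copies of miR-6, miR-13b, miR-2b and miR-2a are near-identical and reads can be split among them, so their separate values are uncertain. miR-13b-1-3p and miR-13b-2-3p, for example, had 3238 and 3244 intestine reads. The 5p arms of the copies of miR-13b, miR-2b and miR-2a had unlike counts, such as 1755 intestine reads for miR-2b-2-5p and 12 for miR-2b-1-5p. The copies do not count as independent members. miR-263a, which like bantam represses hid, was also higher in its abundant arm miR-263a-5p (1.73), named after its values were seen. Its relative miR-263b went the other way, with miR-263b-5p at -6.55. Lower, too, were miR-13a-3p (-5.03) and miR-998-3p (-1.19), and miR-2c-5p, with 2 intestine and 204 carcass reads, was 27.1-fold lower on library totals (95% exact counting interval 7.40 to 225).

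**Figure D5:**
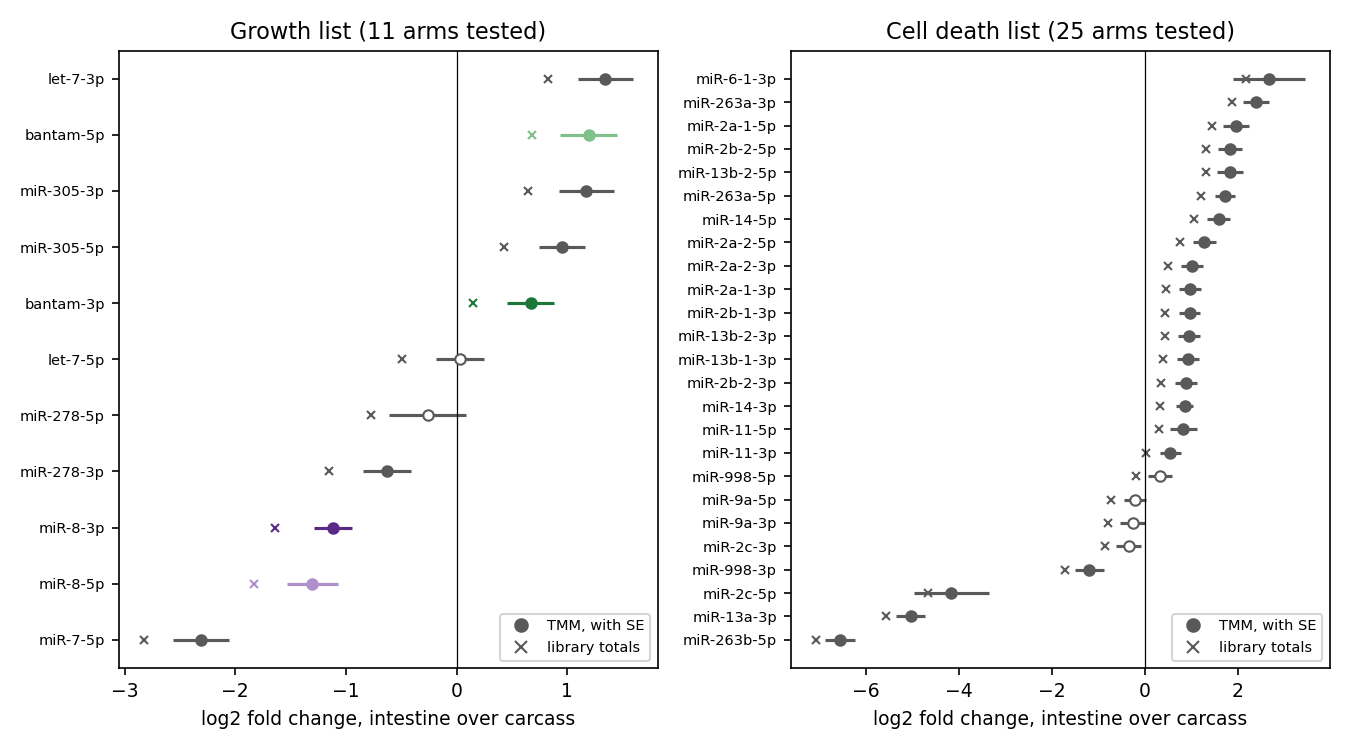
Log2 fold change, intestine over carcass, with its SE (circles, TMM; filled where the adjusted p was under 0.05) for the tested arms of the growth list (11 arms) and the cell death list (25 arms), and the value with library totals as a cross. bantam and miR-8 lie on opposite sides of 0 within the growth list, and the crosses lie to the left of the circles for every arm.

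MicroRNAs of muscle, neurons and testis marked the carcass, and their level in the intestine libraries was low but for miR-1. The intestinal microRNA miR-958, a choice made knowing the study, summed to 191190 to 200001 CPM on library totals in the intestine libraries and to 756 and 888 CPM in the carcass libraries. miR-133 and miR-1, which mark muscle, summed to 27823 to 41637 CPM in the intestine libraries and to 153071 and 143062 CPM in carcass replicates 1 and 2, with all 4 arms lower in the intestine. The 2 differed in the intestine, where miR-1-3p had 42252 reads and miR-133-3p had 77, against 655601 and 31586 in the carcass. The microRNAs of neurons, miR-124 and miR-1000, summed to 89.6 to 106 and to 6864 and 8715, with miR-1000-3p at 0 in the intestine. The testis microRNAs summed to 35.3 to 49.3 and to 3376 and 3257, with 13 of 38 arms at 0 in all intestine libraries. The neuronal sum differed between the carcass libraries in the direction of bantam, at 6864 in replicate 1 and 8715 in replicate 2. The testis sum went the other way, at 3376 in replicate 1 and 3257 in replicate 2, and the muscle markers went both ways. miR-1-3p, nearly all of the muscle sum, had 147875 and 135222 CPM, and miR-133-3p had 4993 and 7675 CPM. The part of muscle, neurons and testis in the tissue differences of bantam and miR-8 was not tested.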

How the data were processed

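Small RNAs of 18 to 29 nt from total RNA were sequenced, per the labels' protocols. Per the submitters' processing notes, the tools included Subread 2.0.0, featureCounts, cutadapt 1.9.1 and Bowtie2 2.3.2. No source used here gives the genome build, the annotation, the strand setting or how reads matching several places were counted. The deposited values are whole-number counts of reads per mature arm, without normalisation, 1 column per library. Their totals are microRNA reads, not full library depth.

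Groups and replicate numbers came from sample titles. Rows were matched to BDGP6.54 by name (473) or synonym (6), and position in the hairpin decided the arm. That build could not be compared with the authors' build.

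In R 4.3.3, edgeR 4.0.16 tested the counts (filterByExpr, minimum count 10, minimum total 15, TMM factors, quasi-likelihood test without a replicate block, Benjamini-Hochberg adjusted p at 0.05 over all 222 arms or 139 hairpin sums). SE is the size of the log2 fold change divided by the root of the F statistic. Arm ratios, log2((5p + 0.5)/(3p + 0.5)), were tested with limma 3.58.1 over 129 hairpins with at least 10 reads in each arm, summed over all libraries. The alternatives were library totals, RLE or upper-quartile factors, DESeq2 1.42.0, limma-voom, other filters, thinning, a replicate block and the omission of each library, where a lone carcass library is taken to vary as those of the intestine do. The tests of levels and of arm ratios were run on simulated counts with known changes, and the outcome is not reported here. For arm ratios, each hairpin had equal reads in all simulated libraries, unlike these data. For levels, 60 arms changed in directions drawn at random, unlike the uneven tissue difference of these data. The simulation therefore does not bear on the choice of scaling.

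The members, lists and tests were chosen with earlier results of these data known. Named besides the members are their neighbours in rank, the 3 nearest patterns, and the 4 largest and 4 smallest log2 fold changes among called arms of each list.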

Additional observations from a re-analysis of the deposited data

How the results depend on the processing

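Over 251 alternative values, 225 kept direction and call or size, 10 lost the call and 16 moved. None of the log2 changes among them turned sign, while the counts of calls, shares and ranks have no sign to turn. Counts of calls had a wide margin, as 56 arms called higher with thinning, against 77, passed as kept. A share passed as kept if it moved by less than its SD. With so few libraries, leaving out a library cannot move a share that far, so those checks could not fail. bantam-3p lost its call with RLE factors (0.32), upper-quartile factors (0.58), library totals (0.15), DESeq2 (0.32), no filter (0.26) and thinning (0.44), and its log2 difference was 0.40 to 1.01 with a library left out. The bantam sum lost it with library totals (0.19) and was 0.52 to 1.05 with a library left out. With library totals, 50 arms (77 with TMM) and 28 hairpins (47) were called higher, which is 28.4% of called arms against 41.8%. The cell death list then had 9 arms higher and 7 lower, and its count of lower arms was 7 with RLE factors, 7 with DESeq2, 10 with no filter and 8 at a mean of at least 10 CPM. Hairpins with a called arm ratio numbered 29, 19 where both arms were read in every library and 5 to 27 with a library left out, 5 without carcass replicate 2 and 7 without carcass replicate 1. Without the most abundant intestine arm, the intestine shares were 3.26% for bantam-3p and 6.08% for miR-8-3p. With a library left out, bantam-3p ranked 11 to 12 in the intestine and 8 to 10 in the carcass.

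No source says that replicate numbers pair libraries, so the numbers were not taken as pairs. The deviations of same-numbered libraries had r = 0.03 for replicate 1 and 0.02 for replicate 2, across 222 arms. With only 2 carcass libraries these values cannot exclude pairing. With the number as a replicate block, 73 arms were higher and 107 lower, bantam-3p had 0.67 and miR-8-3p -1.14, and no call of the 4 arms or the 2 sums changed. For arm ratios the block left 0 of 129 calls by limma (43 at an unadjusted p under 0.05), against 29 by limma without the block (20 by edgeR's diffSpliceDGE). The block leaves 1 residual degree of freedom, and intestine replicate 3 then does not bear on the tissue difference. The counts limit precision little for these arms, as the lowest was 461 reads, and the number of carcass libraries limits it more.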
